A study of Homo sapiens with 12 samples.

Results

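The clade B serpins described here are 7 genes, SERPINB1, SERPINB2, SERPINB3, SERPINB4, SERPINB5, SERPINB7 and SERPINB13, of 33514 gene symbols in the count tables. They were chosen by name, and all 7 passed the filter on low counts, which left 17897 genes for testing. RNA of single cells had been sequenced with a droplet method in SCC1, SCC6 and SCC25, established lines of head and neck squamous cell carcinoma (HNSCC). Each line was given 100 nM cetuximab, an antibody that blocks EGFR (the receptor for epidermal growth factor), every day for 5 days. Control cells, called untreated, were given PBS, a buffered salt solution, on the same days. There were 2 replicates in each of the 6 groups, 12 samples in all, and all were grown in medium with foetal bovine serum. Each sample held cells of 1 line only, so stroma and immune cells were not part of the model. The labels speak of duplicates and the methods of sequencing in duplicate, so that the p-values measure the spread between these samples, which may be technical.

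Serpins are protease inhibitors that trap a protease by letting it cut an exposed loop and then changing shape. Most of the clade B members lack a signal peptide and act inside the cell, where they are thought to protect it from proteases of its own lysosomes and granules. Several are known as products of stratified squamous epithelium. SERPINB3 and SERPINB4 are the squamous cell carcinoma antigens SCCA1 and SCCA2, used as a serum marker of squamous carcinomas. SERPINB1 inhibits neutrophil elastase, proteinase 3 and cathepsin G, and SERPINB2, also called plasminogen activator inhibitor 2, inhibits urokinase (PLAU) and tissue plasminogen activator (PLAT). SERPINB7 is a serpin of the upper epidermis, SERPINB13 (headpin, or hurpin) inhibits cathepsins L and K, and SERPINB5, or maspin, has the serpin fold but is not known to inhibit a protease.

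In the RefSeq annotation of GRCh38.p14, the build to which the count tables also refer, 6 of the 7 genes lie on chromosome 18 within 427 kb (chr18:63476958-63903888). SERPINB1 lies alone on chromosome 6 (chr6:2832332-2841863, minus strand). SERPINB3 (chr18:63655197-63661893) and SERPINB4 (chr18:63637259-63644256) are neighbours on the minus strand and near-identical copies. Their 250 bases upstream of the start site, RefSeq sequence of the minus strand, are shown to give the likeness of the pair there. Capitals mark the bases that differ.
SERPINB3: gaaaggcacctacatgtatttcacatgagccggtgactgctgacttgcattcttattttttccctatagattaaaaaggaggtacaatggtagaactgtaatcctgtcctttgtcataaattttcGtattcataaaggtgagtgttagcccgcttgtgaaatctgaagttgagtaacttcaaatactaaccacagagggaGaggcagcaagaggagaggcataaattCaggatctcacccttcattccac
SERPINB4: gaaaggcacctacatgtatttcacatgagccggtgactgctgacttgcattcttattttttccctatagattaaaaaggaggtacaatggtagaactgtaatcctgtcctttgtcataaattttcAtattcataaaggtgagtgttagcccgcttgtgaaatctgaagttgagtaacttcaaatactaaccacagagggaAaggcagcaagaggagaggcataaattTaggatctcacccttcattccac
The windows, chr18:63661894-63662143 for SERPINB3 and chr18:63644257-63644506 for SERPINB4, differed at 3 of 250 positions (98.8% identical). These bases lie outside the transcripts, and the transcript sequences of the pair were not compared here. How reads matching both genes were counted is not given in the sources used here, so the split of UMIs between SERPINB3 and SERPINB4 is uncertain.

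The upstream windows were also searched for TGACTCA and TGAGTCA, the 2 strands of the motif bound by AP-1, a transcription factor downstream of EGFR signalling. SERPINB13 held 1 match and SERPINB7 held 1 in each of 2 of its 3 annotated start windows. No match was found in the windows of SERPINB1, SERPINB2, SERPINB3, SERPINB4 and SERPINB5. Of all 35116 promoter windows of the same length, 4.20% held a match. The window of SERPINB13 (chr18:63587093-63587342, plus strand) is shown because this is the member whose response to cetuximab differed between lines in the paired fit below. Capitals mark the match.
SERPINB13: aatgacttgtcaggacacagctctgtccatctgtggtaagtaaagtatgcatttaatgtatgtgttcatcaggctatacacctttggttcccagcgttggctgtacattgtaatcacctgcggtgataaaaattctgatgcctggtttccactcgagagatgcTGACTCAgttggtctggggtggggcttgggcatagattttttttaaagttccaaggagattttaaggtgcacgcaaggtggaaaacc
A match is a sequence of letters only, and binding was not measured here.

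The tables held 23914 cells, 961 to 2854 per sample, with 57057402 to 112170073 unique molecular identifiers (UMIs, each counting 1 captured RNA molecule) per sample and medians of 24079 to 54864 UMIs per cell. Samples shared 3 to 10 cell barcodes within a group and 1 to 13 between groups. The squamous label was checked against 6 markers. SCC1 and SCC25 had all 6 above 10 CPM (UMIs of a gene per 1e+06 UMIs of the sample), with untreated means of 490 and 1543 CPM for KRT5 and 1369 and 3416 CPM for KRT14, the basal keratins. In untreated SCC6 these defining keratins were close to absent, with KRT5 at 1.21 CPM and KRT14 at 0.578 CPM, while KRT17 was at 605 CPM and SFN at 182 CPM. PTPRC, CD3E, ALB and HBB, genes that a squamous cell should not express, had a UMI in no more than 0.183% of the cells of any sample once each cell had been thinned to 15000 UMIs. Not all leukocyte markers were that low. The 4 on the list, PTPRC, CD3E, CD14 and CD79A, summed to 9.27 to 14.1 CPM in SCC1, where CD14 was highest. Their sum was 1.13 to 2.29 CPM in SCC6 and 1.90 to 5.34 CPM in SCC25. The summed level of 5 fibroblast markers was higher with treatment in each line. It was 0.947 to 2.79 CPM in untreated and 21.1 to 25.1 CPM in treated SCC6, where 2 of 5 markers passed the test, COL1A1 and PDGFRB. In SCC1 the sums were 7.51 to 8.61 and 17.5 to 18.4 CPM and in SCC25 17.5 to 36.0 and 37.2 to 73.0 CPM, and 0 of 5 passed in either (edgeR; 3 and 2 had an unadjusted p under 0.05, and DESeq2 called 1 and 0). With the replicate number as a block, described below, 3 of 5 passed in SCC1, 3 in SCC6 and 1 in SCC25, all higher with cetuximab. Of all genes tested, 4.45%, 20.1% and 0.978% passed with the block in SCC1, SCC6 and SCC25, and 0.0168%, 3.81% and 0% without it. In treated SCC6 the means of COL1A2 and DCN were 0.0409 and 0.196 CPM. The summed level of the 6 squamous markers was 6417 to 6486 CPM in untreated and 10662 to 11589 CPM in treated SCC1, 715 to 915 and 2280 to 2889 CPM in SCC6, and 6930 to 11292 and 8810 to 13709 CPM in SCC25, where the groups overlapped. In SCC6, 2 of 6 passed, KRT17 higher and KRT6A lower, against 3.81% of all genes. With the block 5 were higher and 1 lower there, against 20.1%. In SCC1, 0 of 6 passed (edgeR; 1 had an unadjusted p under 0.05, and DESeq2 called 0) and KRT14 was higher with the block. In SCC25, 0 of 6 passed without the block (1 had an unadjusted p under 0.05, and DESeq2 called 0) and 0 with it (2 had an unadjusted p under 0.05). The part of either set of markers in the serpin differences was not tested.

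Untreated lines were compared first, to give the level of each serpin per line. CPM values count the 3′ ends of transcripts and are compared only within a gene, and fold differences come from the fit, which also scales each sample by its TMM factor. SERPINB2 and SERPINB7 were higher in SCC1 than in both other lines, SERPINB3, SERPINB4 and SERPINB13 were lower in SCC6 than in both others, and SERPINB1 was lower in SCC25. Of the 7 members, 5 differed between SCC6 and SCC1, all lower in SCC6, against 40.2% of all genes tested. Between SCC25 and SCC1, 4 differed (1 higher and 3 lower in SCC25), against 40.8% of all genes. Between SCC25 and SCC6, 5 differed (3 higher and 2 lower in SCC25), against 40.9%. The median log2 difference of the members was -3.25 for SCC6 against SCC1, 0.49 for SCC25 against SCC1 and 0.66 for SCC25 against SCC6, beside medians over all genes of 0.00326, 0.0399 and 0.00465. All were tested with the quasi-likelihood test of edgeR on UMIs summed per sample, with Benjamini-Hochberg adjustment over all genes, and a line and the preparation of its libraries cannot be told apart.

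SERPINB2, the plasminogen activator inhibitor, was far higher in SCC1 than in the other lines. It was at 82.9 and 68.0 CPM in untreated SCC1, at 3.28 and 3.13 CPM in SCC6, and at 0.198 and 0.0713 CPM in SCC25. There, 11 of the 16 UMIs of replicate 1 lay in 1 cell, and 4 of the 8 UMIs of replicate 2 in 1 cell. The groups did not overlap, and SCC1 was 18.6-fold above SCC6 (log2 difference -4.21 ± 0.80 (SE), adjusted p = 0.00211). Between SCC25 and SCC1 the log2 difference was -8.99 ± 1.04 (SE), with an adjusted p of 0.000112. SCC25 was also below SCC6 (log2 difference -4.78, adjusted p = 0.00246). Without replicate 1 of untreated SCC25 these differences were -9.77 and -5.55. The share of SCC25 cells with SERPINB2 is read as background below, so the sizes of both SCC25 differences are uncertain.

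SERPINB1, the inhibitor of neutrophil proteases, was at 77.7 and 89.9 CPM in untreated SCC1, 80.9 and 54.8 CPM in SCC6 and 13.2 and 24.9 CPM in SCC25. SCC1 and SCC6 overlapped, with a log2 difference of 0.03 and a 95% interval of -0.71 to 0.78. SCC25 was lower than SCC1 by a log2 difference of -1.93 ± 0.35 (SE, adjusted p = 0.00160), a 3.82-fold difference. Against SCC6 it was lower 3.91-fold (adjusted p = 0.00148). Without replicate 2 of untreated SCC25 the log2 differences were -2.54 from SCC1 and -2.57 from SCC6.

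The squamous cell carcinoma antigens were lowest in SCC6. SERPINB3 was at 2.69 and 6.09 CPM in untreated SCC1, 0.239 and 0.224 CPM in SCC6 and 4.22 and 10.3 CPM in SCC25. SERPINB4 was at 0.592 and 2.88 CPM in SCC1, 0.209 and 0.0876 CPM in SCC6 and 1.83 and 6.07 CPM in SCC25. SCC6 lay below both other lines without overlap for each gene. SERPINB3 was 15.3-fold lower in SCC6 than in SCC1 (log2 difference -3.93 ± 0.56 (SE), adjusted p = 0.000366) and SERPINB4 9.53-fold lower (-3.25 ± 0.94, adjusted p = 0.0212). Without replicate 2 of untreated SCC1 the log2 difference of SERPINB3 was -3.12. The SERPINB4 call rested on single samples, since without replicate 2 of untreated SCC1 the log2 difference was -1.57 (adjusted p = 0.226), and without replicate 1 or 2 of untreated SCC6 the adjusted p was 0.0584 or 0.125. SCC25 was 28.8-fold above SCC6 for SERPINB3 and 24.3-fold above for SERPINB4, with adjusted p of 0.000131 and 0.00476. Without replicate 2 of untreated SCC25 these log2 differences, 4.85 and 4.60, were 3.98 and 3.40. For SERPINB4 the difference was larger without replicate 1 of untreated SCC25 or replicate 1 of untreated SCC6, up to 5.41. SCC25 and SCC1 overlapped for both genes. The log2 difference was 0.92 for SERPINB3 (95% interval -0.13 to 1.97, adjusted p = 0.148). It passed without replicate 2 of untreated SCC1 (adjusted p = 0.0424) and without replicate 1 of untreated SCC25 (0.0320). For SERPINB4 the log2 difference was 1.35 (95% interval -0.46 to 3.17, adjusted p = 0.211), and it passed without replicate 2 of untreated SCC1 (0.0450).

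SERPINB13, the inhibitor of cathepsins L and K, was ordered in the same way and with less spread, at 3.503 and 3.23 CPM in untreated SCC1, 0.189 and 0.156 CPM in SCC6 and 5.95 and 7.65 CPM in SCC25. All 3 groups were apart. SCC6 was 15.3-fold below SCC1 (adjusted p = 1.69e-05) and SCC25 was 35.6-fold above SCC6 (adjusted p = 5.00e-06). SCC25 was 2.32-fold above SCC1 (adjusted p = 0.00746), a call that missed the threshold without replicate 1 of SCC1 (0.0546), replicate 2 of SCC1 (0.0514) or replicate 2 of SCC25 (0.0581).

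SERPINB7, the serpin of the upper epidermis, was highest in SCC1, at 11.4 and 10.9 CPM, against 0.897 and 1.80 CPM in SCC6 and 1.91 and 1.35 CPM in SCC25. SCC6 was 6.60-fold lower than SCC1 (adjusted p = 0.00173) and SCC25 6.02-fold lower (adjusted p = 0.00227). SCC6 and SCC25 overlapped, with a log2 difference of 0.13 (95% interval -0.93 to 1.202). SERPINB5, or maspin, did not pass the test between any of the lines. Untreated values were 44.6 and 61.7 CPM in SCC1, 38.9 and 36.9 CPM in SCC6 and 48.5 and 82.2 CPM in SCC25, with the largest log2 difference between SCC25 and SCC6 (0.66, 95% interval -0.12 to 1.43).

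**Figure D1:**
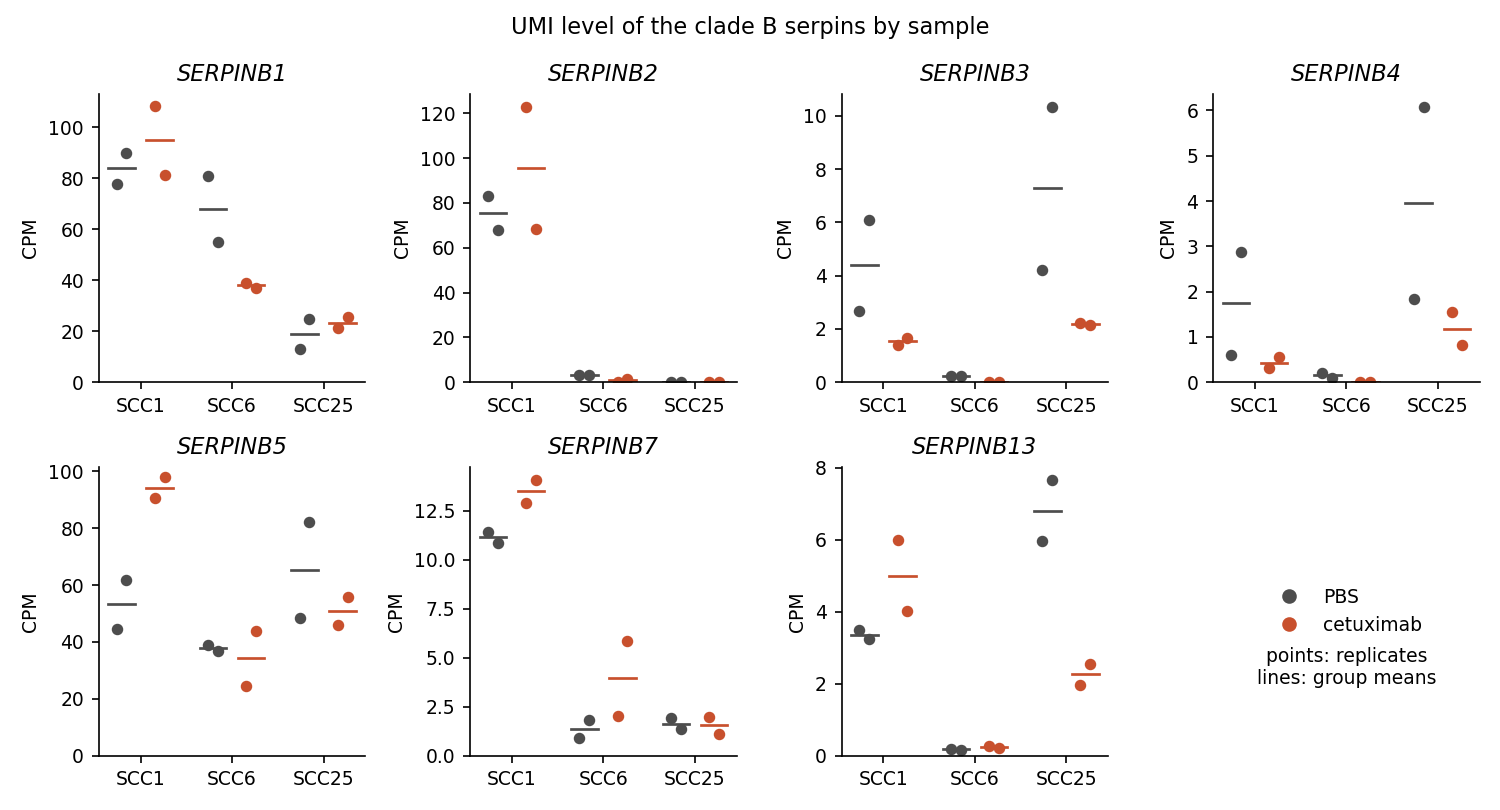
CPM of each member (vertical axis, linear and starting at 0, its own range in each panel) in the 12 samples, by line on the horizontal axis; points are replicates 1 (left) and 2 (right), short lines group means, grey PBS and red cetuximab. SERPINB2 reaches 68.0 CPM or more in all 4 SCC1 samples and at most 3.28 CPM elsewhere, and the cetuximab points of SERPINB3 and SERPINB4 lie below the PBS points in each line.

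The effect of 5 days of cetuximab was tested within each line. The labels do not state that equal replicate numbers pair treated and untreated samples, and the pairing was taken from these data. The fit with the replicate number as a block is therefore given beside the fit without it where the call changes. In SCC1, 0 of 7 members passed in edgeR (2 had an unadjusted p under 0.05, and DESeq2 also called 0), against 0.0168% of all genes, and 0 passed with the block (4 had an unadjusted p under 0.05), against 4.45%. In SCC6, 1 passed, SERPINB3, which fell, against 3.81% of all genes, while DESeq2 called 3, SERPINB1, SERPINB3 and SERPINB4. With the block, 4 passed there, SERPINB1, SERPINB2 and SERPINB3 lower and SERPINB7 higher, against 20.1%. In SCC25, 0 passed (2 had an unadjusted p under 0.05, and DESeq2 called 1, SERPINB13), where the share over all genes was likewise 0%. With the block, SERPINB13 passed, 1 of 7 against 0.978% of all genes. The 7 members had a median log2 fold change of 0.23 (SCC1), -1.08 (SCC6) and -1.02 (SCC25), where over all genes it was 0.00120, 0 and -0.00676. The SCC25 median was the value of SERPINB2, which had 16 and 8 UMIs in the untreated and 12 and 0 in the treated samples there. Without the cell that had most UMIs of each member in each sample, SERPINB2 in SCC25 was at 0.13, so this median is not read as a change of the family. Where groups are said not to overlap, here and for the untreated lines, this describes the values and is no test. With 2 samples per group it is common by chance, and its share over all genes was not counted. In these cultures fewer cells with a transcript and less RNA per cell cannot be told apart from the sums alone.

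SERPINB3 was lower with cetuximab in each line. In SCC1 it went from 2.69 and 6.09 CPM to 1.40 and 1.66 CPM, a log2 fold change of -1.59 ± 0.49 (SE), which did not pass (adjusted p = 0.346, and 0.0642 with the block). In SCC25 it went from 4.22 and 10.3 CPM to 2.23 and 2.14 CPM, a log2 fold change of -1.79 ± 0.49 (SE) with an adjusted p of 0.533, and of 0.0917 with the block. In both lines the treated and untreated samples did not overlap, but the untreated replicates were far apart. Without replicate 2 of the untreated cells the log2 fold change was -0.79 in SCC1 and -0.92 in SCC25. In SCC6 it fell from 24 and 23 UMIs, 0.239 and 0.224 CPM, to a single UMI in each treated sample (0.0132 and 0.0111 CPM). This is a 19.2-fold difference in pooled CPM, with an exact 95% counting interval of 5.03 to 163, and it passed the test (adjusted p = 0.0328). Leaving out any of the 4 SCC6 samples ended this call (adjusted p between 0.0609 and 0.209), and so did leaving out replicate 1 of treated SCC1 (0.05004).

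SERPINB4 was also lower with cetuximab in each line, without overlap. It went from 0.592 and 2.88 CPM to 0.315 and 0.546 CPM in SCC1, and from 1.83 and 6.07 CPM to 1.56 and 0.812 CPM in SCC25. The log2 fold changes were -2.09 ± 0.87 (SE) and -1.81 ± 0.82 (SE), and neither passed (adjusted p = 0.532 and 0.872). Without replicate 2 of the untreated cells they were -0.42 and -0.60. In SCC6, 21 and 9 UMIs were counted in the untreated samples and none in 165998266 UMIs of the treated samples. With the limit of 3 counts over the treated group, SERPINB4 was at least 8.17-fold lower, and the test did not pass (adjusted p = 0.135, and 0.0762 with the block), while DESeq2 called it (0.00391).

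Averaged over the 3 lines, 2 of 7 members passed, SERPINB3 and SERPINB4, both lower, against 3.86% of all genes. The adjusted p was 0.00848 for SERPINB3 and 0.0458 for SERPINB4. SERPINB3 passed without any one of the 12 samples (adjusted p at most 0.0331). SERPINB4 lost the call without any one of 10 of them (adjusted p 0.0595 to 0.138), the exceptions being replicate 1 of untreated SCC1 and of untreated SCC25. No size is given for these averages, because they take in the SCC6 samples with 0 to 2 treated UMIs. With the block, SERPINB7 also passed (log2 fold change 0.44 ± 0.12 (SE), adjusted p = 0.0295), 3 of 7 members against 21.2% of all genes. The median log2 change of the members over the lines was -0.31, beside 0.00532 for all genes.

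SERPINB13 did not follow SERPINB3 in every line. In SCC25 it went from 5.95 and 7.65 CPM to 1.96 and 2.56 CPM, and the groups were apart. The log2 fold change was -1.62 ± 0.29 (SE), a 3.08-fold lower level, which did not pass without the block (adjusted p = 0.285) and passed with it (0.0168). In SCC1 both treated samples were above both untreated ones, 5.99 and 4.01 CPM against 3.503 and 3.23 CPM, a log2 fold change of 0.52 (95% interval -0.12 to 1.16, adjusted p = 0.697). In SCC6 the treated samples had 20 and 18 UMIs and the untreated ones 19 and 16, without overlap in CPM, and the log2 fold change was 0.18 (95% interval -0.63 to 1.00).

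Whether the effect of cetuximab differed between the lines was tested as an interaction. In edgeR, 0 of 7 members passed without the block, where 2 had an unadjusted p under 0.05 and 0% of all genes passed. SERPINB13 came closest, with an adjusted p of 0.314. With the block it passed (adjusted p = 0.0302), the only 1 of the 7, against 1.29% of all genes, and DESeq2 without the block also called it (0.00186). In the fit without the block, its log2 effect in SCC25 minus that in SCC1 was -2.14 ± 0.41 (SE), from -1.62 in SCC25 and 0.52 in SCC1.

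SERPINB7 was higher in treated SCC6, at 2.03 and 5.86 CPM against 0.897 and 1.80 CPM. The treated samples lay above the untreated ones, by a log2 fold change of 1.34 ± 0.48 (SE, adjusted p = 0.156), and the change passed with the block (1.24 ± 0.21, adjusted p = 0.00649). The size rested on replicate 2 of treated SCC6, without which the log2 fold change in the fit without the block was 0.35. In SCC1 it was 12.9 and 14.1 CPM after 11.4 and 10.9 CPM, a log2 fold change of 0.23 (95% interval -0.80 to 1.25). In SCC25 it was 1.96 and 1.13 CPM against 1.91 and 1.35 CPM, overlapping, with a log2 fold change of -0.10 (95% interval -1.17 to 0.97).

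The inhibitors of neutrophil proteases and plasminogen activators were lower in treated SCC6. SERPINB1 went from 80.9 and 54.8 CPM to 39.1 and 37.0 CPM, a log2 fold change of -1.08 ± 0.34 (SE) that passed with the block (-1.04 ± 0.24, adjusted p = 0.0211) and not without it (0.111), while DESeq2 called it without the block (0.0333). SERPINB2 went from 3.28 and 3.13 CPM to 0.263 and 1.58 CPM, a log2 fold change of -2.01 ± 0.76 (SE), again past the threshold with the block (adjusted p = 0.0250) and not without it (0.176). In the fit without the block it was -1.24 without replicate 1 of treated SCC6 and -3.85 without replicate 2. Of the 142 SERPINB2 UMIs in replicate 2 of treated SCC6, 98 came from 1 cell, which also held 68 SERPINB5 UMIs among its 27321. Without the cell that had most UMIs of each member in each sample, the log2 fold change of SERPINB2 was -3.19 and it passed without the block (adjusted p = 0.0198).

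In SCC1 and SCC25 these genes gave no call. SERPINB1 was 77.7 and 89.9 CPM against 108 and 81.4 CPM with cetuximab in SCC1, and 13.2 and 24.9 CPM against 21.2 and 25.4 CPM in SCC25. Both pairs of groups overlapped. SERPINB2 in SCC1 was 82.9 and 68.0 CPM against 123 and 68.3 CPM with cetuximab, also overlapping (log2 fold change 0.29, 95% interval -1.26 to 1.84). SERPINB5 was higher in both treated SCC1 samples, 90.5 and 97.8 CPM against 44.6 and 61.7 CPM, by a log2 fold change of 0.76 ± 0.35 (SE) that did not pass (adjusted p = 0.587, and 0.120 with the block). Its values overlapped in SCC6 (24.7 and 43.9 CPM against 38.9 and 36.9 CPM) and in SCC25 (46.1 and 56.0 CPM against 48.5 and 82.2 CPM).

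**Figure D2:**
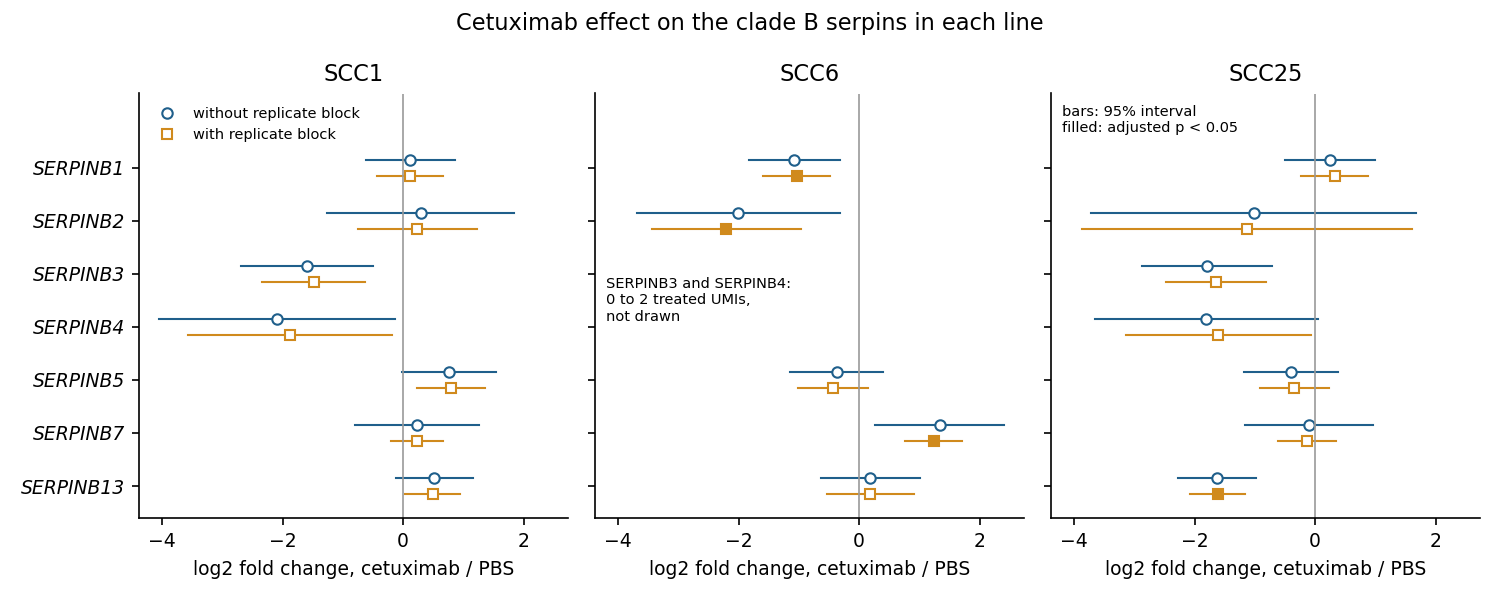
Log2 fold change of cetuximab over PBS (horizontal axis) for each member in each line, with 95% intervals, from the edgeR fit without (circles) and with (squares) the replicate number as a block; filled symbols have an adjusted p under 0.05, and SERPINB3 and SERPINB4 in SCC6 are left out because the treated samples held 2 and 0 UMIs. SERPINB3 and SERPINB4 lie left of 0 in SCC1 and SCC25, SERPINB13 lies left of 0 in SCC25 only, and the intervals of SERPINB7 in SCC6 lie right of 0.

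The share of cells with at least 1 UMI was taken after thinning each cell to 15000 UMIs, which left out 851 cells. Means are given with the SD of 2 replicates. Intervals on single samples, drawn in the plot of shares, are exact Clopper-Pearson intervals and cover counting error only. SERPINB5 and SERPINB1 were found in large shares of cells. In untreated cells SERPINB5 was in 49.7% ± 6.0 of SCC1, 39.1% ± 0.54 of SCC6 and 53.4% ± 14 of SCC25, and SERPINB1 in 65.3% ± 5.3, 59.2% ± 8.5 and 22.5% ± 9.8. SERPINB2 was in 52.6% ± 7.2 of untreated SCC1 cells, 3.46% ± 0.041 of SCC6 cells and 0.0885% ± 0.069 of SCC25 cells, the last below the 0.183% reached by HBB in an SCC25 sample and so read as background. In treated SCC1, SCC6 and SCC25, SERPINB5 was in 67.2% ± 1.6, 37.2% ± 12 and 48.3% ± 3.6 of cells. For SERPINB1 the treated shares were 69.4% ± 4.6, 42.7% ± 0.63 and 28.3% ± 4.7, in the same order. For SERPINB2 they were 55.1% ± 6.3, 0.532% ± 0.37 and 0.0521% ± 0.074, the last again read as background.

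The squamous cell carcinoma antigens and SERPINB13 were found in few cells. SERPINB3 went from 3.47% ± 1.6 to 1.51% ± 0.88 of SCC1 cells, from 0.295% ± 0.010 to 0.0498% ± 0.016 of SCC6 cells and from 7.42% ± 4.1 to 2.51% ± 0.64 of SCC25 cells. The treated SCC6 share was no higher than the 0.0610% that PTPRC reached in SCC6 and is read as background. Without thinning, the untreated and treated shares were 10.0% and 3.38% (SCC1), 0.807% and 0.0478% (SCC6), and 12.9% and 4.89% (SCC25). SERPINB4 went from 1.91% ± 1.5 to 0.341% ± 0.27 in SCC1 and from 4.27% ± 3.1 to 1.64% ± 0.62 in SCC25. In SCC6 it went from 0.272% ± 0.095 to 0 of 2592 and 0 of 1639 cells, which allow shares of up to 0.116% and 0.183%. SERPINB13 went from 4.82% ± 0.17 to 6.17% ± 1.1 of SCC1 cells and from 9.05% ± 2.1 to 3.39% ± 0.52 of SCC25 cells. SERPINB7 went from 13.3% ± 0.22 to 17.0% ± 1.7 in SCC1 and from 1.71% ± 0.77 to 4.24% ± 2.5 in SCC6. These shares are descriptions and were not tested.

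**Figure D3:**
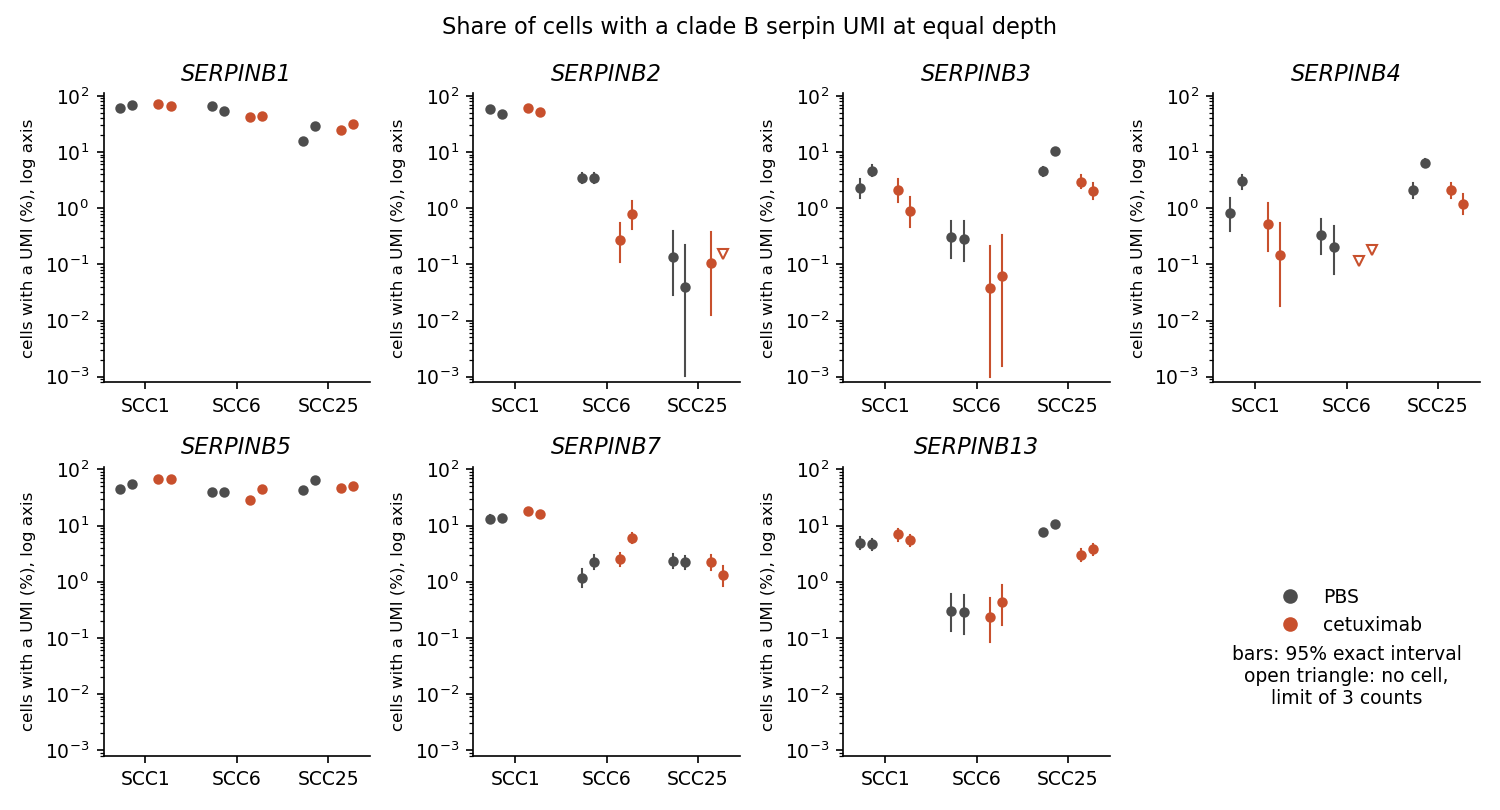
Share of cells with at least 1 UMI of each member after thinning to 15000 UMIs (vertical axis, percent, log scale) in the 12 samples by line, replicates 1 (left) and 2 (right), grey PBS and red cetuximab; bars are exact 95% intervals, and open triangles mark samples with no such cell at the limit that 3 counts give. SERPINB3, SERPINB4 and SERPINB13 stay at or below 10.5% of cells in every sample, while SERPINB1 and SERPINB5 reach at least 15.5%.

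In the lines that expressed them, SERPINB3, SERPINB4 and SERPINB13 were found in the same cells more often than the product of their shares gives. In untreated SCC25, 17 of 99 and 70 of 258 cells with SERPINB3 also had SERPINB4, that is, 17.2% (95% exact interval 10.3 to 26.1) and 27.1% (21.8 to 33.0), against 2.10% and 6.43% of all cells. SERPINB13 was in 30.3% (21.5 to 40.4) and 29.5% (24.0 to 35.4) of them, against 7.59% and 10.5% of all cells. With cetuximab, 22.8% and 31.7% of the SERPINB3 cells of SCC25 had SERPINB13 (13 of 57 and 13 of 41), against 3.02% and 3.76% of all cells. In SCC1 the same shares were 32.1% and 14.5% untreated and 55.0% and 50% treated, the last from 11 of 20 and 6 of 12 cells. In the 7 samples with at least 20 cells of each gene, cells with both SERPINB3 and SERPINB13 were 2.80 to 8.43 times as many as the product of the 2 shares gives. For SERPINB3 with SERPINB4 the ratio was 4.22 to 11.8 in 5 samples, with the split of their UMIs uncertain as given above. These ratios are descriptions within each sample, and cells captured together in 1 droplet were not removed.

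**Figure D4:**
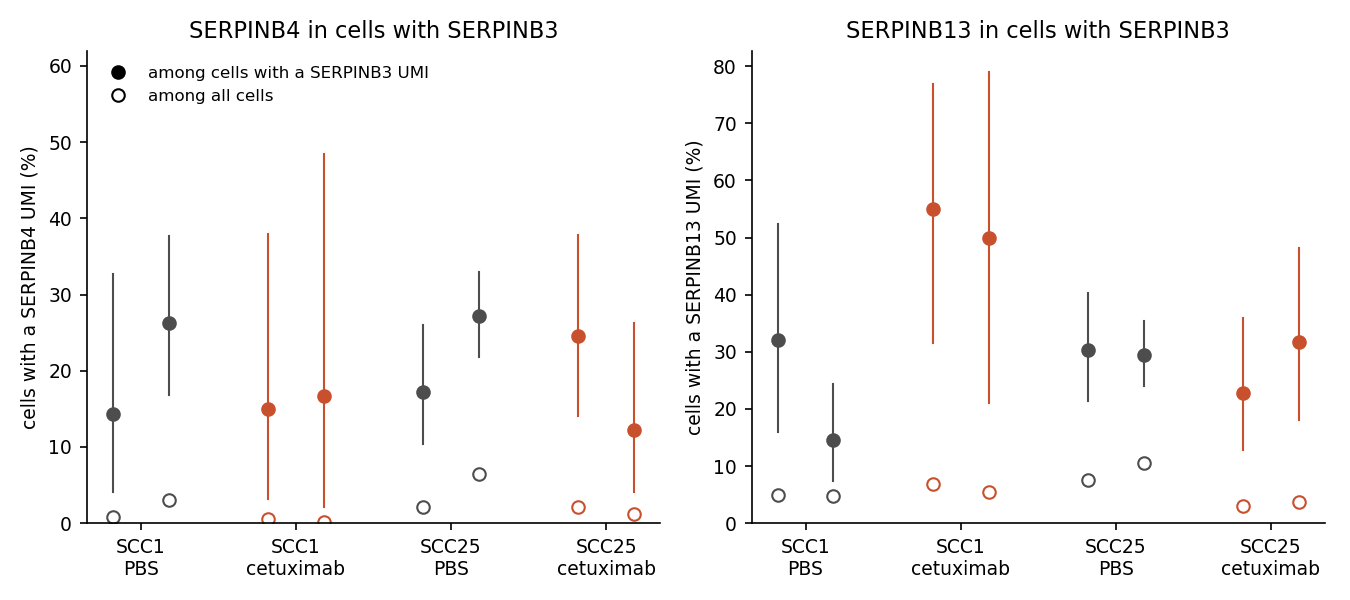
Share of cells with a SERPINB4 UMI (left) and a SERPINB13 UMI (right) among cells with a SERPINB3 UMI (filled, with exact 95% intervals) and among all cells (open), in percent on linear axes from 0, for the 8 samples of SCC1 and SCC25; replicate 1 is left and 2 right, grey PBS and red cetuximab. Every filled point lies above its open point, for SERPINB13 at 14.5% to 55.0% against 3.02% to 10.5%.

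UMIs of 16 squamous differentiation genes, which include KRT13, KRT10, IVL and TGM1 and none of the members, were compared between cells with and without each serpin in samples with at least 20 positive cells. Per thinned cell, SERPINB3-positive cells had 1.12 to 2.67 times the differentiation UMIs of the other cells in 7 of 7 samples, and SERPINB13-positive cells 1.10 to 2.56 times in 8 of 8. For SERPINB4 the ratio was 1.07 to 2.02 in 5 of 5 samples. It was 0.888 to 1.34 for SERPINB1 and 0.928 to 1.47 for SERPINB5, above 1 in 11 of 12 samples for each, and 0.773 to 1.41 for SERPINB7, above 1 in 7 of 12. For SERPINB2 it was 0.759 to 1.10, above 1 in 3 of 6 samples. The samples for SERPINB3, SERPINB4 and SERPINB13 were all of SCC1 and SCC25, while those for the other members included SCC6, so the ranges come from unlike lines. In SCC6 the ratio was 1.01 to 1.09 for SERPINB1 and 0.928 to 1.03 for SERPINB5. In SCC1 it was 1.20 to 1.47 for SERPINB5 and 1.27 to 2.67 for SERPINB3. In replicate 2 of untreated SCC25, the sample with most SERPINB3, the means were 29.7 and 13.5 UMIs for cells with and without SERPINB3. Single cells could hold much of a sample's total. In replicate 2 of treated SCC1, 1 cell with 23903 UMIs held 51 of the 131 SERPINB3 UMIs and 34 of the 43 SERPINB4 UMIs. Without it, the levels of that sample were 1.02 CPM for SERPINB3 and 0.114 CPM for SERPINB4.

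Of the 16 differentiation genes, 13 were tested. TGM1, a transglutaminase of the cornified envelope, rose in SCC6 from 0.664 to 3.35 CPM (log2 fold change 2.11 ± 0.50 (SE), adjusted p = 0.0457), and none of the 13 passed in SCC1 or SCC25 in edgeR (1 and 0 had an unadjusted p under 0.05, and DESeq2 called 0 in both). With the block, TGM1 also rose in SCC1 (1.49 ± 0.25, adjusted p = 0.0181), and in SCC6 IVL rose and SBSN fell. KRT4 and KRT13, keratins of moist epithelia, fell in SCC25 with the block, where SERPINB13 also fell. Their log2 fold changes were -3.19 ± 0.46 (SE) and -2.24 ± 0.32 (SE), both with an adjusted p of 0.0261. The summed level of the list was 421 and 892 CPM in untreated SCC25 and 211 and 475 CPM with cetuximab, and 737 and 808 CPM against 933 and 1415 CPM in SCC1. Its part in the changes of SERPINB3 and SERPINB13 was not tested.

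Of the other 6 clade B serpins, SERPINB6, SERPINB8 and SERPINB9 were tested and the rest were near or at 0. None of the 3 passed without the block in any line with cetuximab (edgeR; 1 had an unadjusted p under 0.05, SERPINB6 in SCC6, which DESeq2 called). SERPINB6 fell in SCC6 with the block, from 117 to 85.0 CPM (log2 fold change -0.70 ± 0.16 (SE), adjusted p = 0.0197). SERPINB9, the inhibitor of granzyme B, had 0 UMIs in all 4 SCC6 samples and 13.7 CPM in untreated SCC1, so that untreated SCC1 was at least 935-fold higher, with 3 counts as the limit over the untreated SCC6 group. Untreated SCC25 had 1.14 CPM, a log2 difference of -3.41 from SCC1 (adjusted p = 0.000541).

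Among 11 proteases that clade B serpins are known to inhibit, 8 were tested, and none passed for cetuximab in any line without the block (edgeR; 1 had an unadjusted p under 0.05 in SCC1, 2 in SCC6 and 2 in SCC25, and DESeq2 called 0 in each). With the block, PRTN3, or proteinase 3, fell in SCC6 (log2 fold change -1.82 ± 0.41 (SE), adjusted p = 0.0233). Between untreated lines, 5 of 8 differed for SCC6 against SCC1, 5 for SCC25 against SCC1 and 4 for SCC25 against SCC6. Of all genes tested, 40.2%, 40.8% and 40.9% differed in these comparisons, so the counts of proteases are not read as particular to them. Those of SERPINB13 were among them, with cathepsin L (CTSL) higher in SCC6 (60.7 CPM) and SCC25 (113 CPM) than in SCC1 (17.9 CPM), and cathepsin K (CTSK) at 34.5 CPM in SCC25 against 0.478 CPM in SCC1. PLAU, 1 of the 2 targets named above for SERPINB2, was at 237 CPM in SCC1. It was at 49.2 CPM in SCC6 and 76.3 CPM in SCC25, and both lines were below SCC1 (adjusted p = 0.0110 and 0.0381). PLAT, the other target, was called by DESeq2 between untreated SCC25 and SCC6, and its levels are not reported here. ELANE, CTSG and CMA1, proteases of neutrophils and mast cells, had no more than 0.00568 CPM in any group.

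Likeness across the 12 samples, after subtraction of each line's mean, is given as a description, with samples that share lines and treatment. SERPINB3 and SERPINB4 were most alike among the members (Pearson r = 0.96 of log2 CPM), and SERPINB1 and SERPINB7 ran opposite (r = -0.71). Among 7583 genes with a mean of at least 10 CPM, SERPINB1 was most like FBXW5, ASS1 and HPS3 (r = 0.93 to 0.96). SERPINB5 was most like RABGGTA, TINF2 and PIGV (r = 0.91 to 0.93), and SERPINB7 most like B4GALNT1, AL353751.1 and SFN (r = 0.86 to 0.90).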

How the data were processed

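Chromium Single Cell 3′ v2 libraries of SCC1, SCC6 and SCC25, treated with cetuximab or PBS in duplicate, were analysed. Per the labels and methods, reads were filtered and aligned by the authors in Cell Ranger against GRCh38 (version and annotation not given in the sources used here), and cells were pre-processed in Monocle. The deposited values were raw UMI counts per gene and cell, and 0 columns of per-sample values were left unused. A second deposited column named the sample of each cell (unit: other). Counts of the 24 symbols found on more than 1 row were added. No doublet caller was run, and no cell was removed from the sums.

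UMIs were summed per sample and compared in edgeR 4.0.16 by its quasi-likelihood F-test (R 4.3.3; TMM factors 0.835 to 1.14, filterByExpr, a mean for each of 6 groups, two-sided, prior count 2, adjusted p under 0.05 over 17897 genes). The study tested cells with Monocle, but cells are not replicates. DESeq2 1.42.0 was an alternative. Deviations from the group means were correlated between same-numbered treated and untreated samples (r = 0.677 in SCC1, 0.630 in SCC6 and 0.723 in SCC25, over 7583 genes), so the numbers were taken to pair the samples, from the data. CPM printed per sample are UMIs over the sample's total, without TMM. Cells thinned to 15000 UMIs by random draws gave the shares.

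The members and lists were chosen with earlier results of these data known. Named genes were the 7 members. Of the other lists, called genes and at most 4 others of highest mean CPM were to be named, and for members with a mean of at least 5 CPM the 3 genes most like them (for SERPINB2 not reported here). The proteases near 0, COL1A2, DCN and the single cells described were named after their values were seen. Alternatives were another normalisation, no filter, leaving out samples, cells of high UMI or mitochondrial share, a replicate block, and each comparison's samples alone. Precision is limited by 2 replicates per group and by the low UMI counts of SERPINB3, SERPINB4 and SERPINB13.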

Additional observations from a re-analysis of the deposited data

Results flagged for a closer look

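The effect of cetuximab on SERPINB13 differed between the lines in the fit with the replicate number as a block (interaction of line and treatment, edgeR, adjusted p = 0.0302). Levels were lower with cetuximab in both pairs of SCC25, 1.96 against 5.95 CPM and 2.56 against 7.65 CPM, and higher in both pairs of SCC1, 5.99 against 3.503 CPM and 4.01 against 3.23 CPM. In SCC6 they were 0.263 against 0.189 CPM and 0.20002 against 0.156 CPM. Without the block the adjusted p was 0.314, and over all alternatives other than leaving out a sample it lay between 0.00186 and 0.353. The fit without the block also did not pass when any 1 sample was left out. Its log2 fold change then ran from -1.84 to -1.37 in SCC25 and from 0.22 to 0.76 in SCC1. Samples far from their group were not looked for, as each group had 2 samples.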

How the results depend on the processing

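Over the other settings, 1016 of 1084 results for single members (fold changes and interaction values) kept direction and side of the threshold, 21 newly passed, 21 no longer passed and 26 changed sign, and 626 of the 672 obtained by leaving out 1 sample were unchanged in this sense. With the replicate block, 4 members were called in SCC6, 1 in SCC25 and 1 in the interaction. It added SERPINB7 averaged over lines and changed no other call of a member. DESeq2 called 3 in SCC6, 1 in SCC25 and 1 in the interaction, and without the filter on low counts 5, 2 and 1 were called. Without the top cell of each member in each sample, an alternative chosen after seeing the data, 2 were called in SCC6. Leaving out 1 sample gave 0 to 1 calls in SCC6 and 1 to 2 averaged over lines. The cause was not tested. The signs that changed all belonged to values that did not pass. Leaving out 1 sample, log2 changes with cetuximab ran from -0.085 to 0.31 for SERPINB1 and from -0.17 to 0.64 for SERPINB2 in SCC1, and from -0.00525 to 0.38 for SERPINB13 in SCC6. In SCC25 they ran from -0.18 to 0.85 for SERPINB1, -6.54 to 0.051 for SERPINB2, -0.78 to 0.10 for SERPINB5 and -0.53 to 0.24 for SERPINB7, and averaged over lines from -0.17 to 0.16 for SERPINB5. Between untreated lines they ran from -0.33 to 0.33 for SERPINB1 and -0.44 to 0.17 for SERPINB5 (SCC6 against SCC1), -0.0145 to 0.86 for SERPINB5 (SCC25 against SCC1) and -0.25 to 0.66 for SERPINB7 (SCC25 against SCC6). SERPINB13 in SCC6 was at -0.12 without the 5% of cells with most UMIs, SERPINB2 in SCC25 at 0.13 without the top cells, and SERPINB5 averaged over lines at 0.00449 without the filter and 0.00564 with the block.

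Counts over all genes moved more. In SCC1, 3 genes were called and 243 without the filter, 797 with the block, 0 in that line alone and 274 by DESeq2. In SCC6 it was 682, and 1233, 3589, 265 and 1671. In SCC25 it was 0, and 128, 175 and 101 without the filter, with the block and by DESeq2, and averaged over lines 691, and 1271, 3797 and 1831. For the interaction it was 0, and 248, 230 and 276. Leaving out 1 sample gave 11 to 749 genes in SCC6 and 154 to 659 averaged over lines. Of 21 differences in share of positive cells, 6 stayed within 1 SD without thinning, 14 with thinning to 10000 UMIs and 12 with at least 2 UMIs required.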
